A study of Homo sapiens with 2 samples.

Results

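The high mobility group (HMG) chromatin proteins were followed on a pair of Hep3B mRNA arrays through 10 genes, namely HMGB1, HMGB2, HMGB3, HMGA1, HMGA2, HMGN1, HMGN2, HMGN3, HMGN4 and HMGN5. They were read by 15 of the 29187 probes, taken as every probe whose gene symbol is one of these names. HMGB2 was selected by the study on its ratio in the array experiment that these arrays come from. The other genes were chosen as its relatives with earlier results of these arrays known. All values below are therefore descriptions. Hep 3B is a human hepatocellular carcinoma cell line. The anti-miR-19b array holds RNA of cells transfected with an inhibitor of miR-19b, and the control array holds RNA of cells transfected with the control. In both cases 90 pmol was given per well with a lipid reagent, and RNA was collected 24 h later. Each condition has 1 array in the series, so that no test could be made here and no replicate error exists for any value. The study lists P-values beside its genes lower with anti-miR-19b, and does not name the test or the replicates behind them.

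HMG proteins are small, abundant proteins that bind chromatin and change its shape without reading a long DNA sequence. The HMGB proteins carry HMG boxes, which bend DNA, and an acidic tail. HMGB1 is also known outside the cell as a danger signal, and HMGB2 is known for its high level in dividing cells. The HMGA proteins hold AT hooks, which sit in the minor groove of AT-rich DNA. They are typical of embryonic and tumor cells. The HMGN proteins bind the nucleosome itself and counteract the linker histone H1.

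The molecule targeted in the treated cells was mature miR-19b, printed 5′ to 3′ with the seed (bases 2 to 8, which pair with target mRNAs) in capitals. It is shown with miR-19a, its relative in the same cluster, because the seed decides which mRNAs can be direct targets.
hsa-miR-19b-3p: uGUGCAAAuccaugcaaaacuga
hsa-miR-19a-3p: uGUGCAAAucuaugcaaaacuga
The sequences are from RefSeq (GRCh38.p14), where miR-19b-3p lies at chr13:91351245-91351267 on the plus strand (MIR19B1) and, as an identical copy, at chrX:134169683-134169705 on the minus strand (MIR19B2), and miR-19a-3p at chr13:91350939-91350961 on the plus strand. They differ by the substitution C11U, counted from the 5′ end of miR-19b, and share the seed. The arrays read mRNA and not the mature microRNA, so that the extent of inhibition was not measured here. Whether the mRNAs of the HMG genes hold sites for this seed was not examined.

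Each probe has 1 normalized intensity per array on a linear scale, and its log2 ratio is the log2 intensity on the anti-miR-19b array minus that on the control array. Of all probes, 26186 were above 0 on both arrays and could be compared, all 15 HMG probes among them. Probes are called bright where their mean level reached the median of 41.4 intensity units, and dim below it. Bright probes had a median log2 ratio of 0.026 and a spread of 0.26 (the distance from percentile 16 to 84, divided by 2), while dim probes had a spread of 0.87. In place of a replicate error, each HMG probe was set beside its 500 neighbours, the probes closest to it in level. These describe how far apart the arrays lie at that brightness and say nothing of variation between cultures. The labelled cell type was also looked at. All 8 hepatocyte markers with a named probe had a bright probe, with ALB at 14382 in control cells and 15550 with anti-miR-19b and AFP at 1371 and 1783. The summed intensity of this list was 41753 in control cells and 42974 with anti-miR-19b. Bright probes read 1 of 3 biliary markers, 1 of 4 endothelial markers, 2 of 7 stellate and fibroblast markers and 3 of 5 immune markers. The bright immune markers were CD68 (418 in control cells and 353 with anti-miR-19b), CD14 (135 and 118) and MS4A1 (61.8 and 52.6 at its bright probe). Their median log2 ratio was -0.23. The dim MS4A1 probe went the other way, with 5.96 in control cells and 13.0 with anti-miR-19b. PTPRC and CD3E were at 7.46 or below at every probe. The summed intensity of the immune list was 635 and 548, and its part in the results below was not tested. As in any bulk RNA, more cells with a transcript and more of it per cell cannot be told apart.

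**Figure D1:**
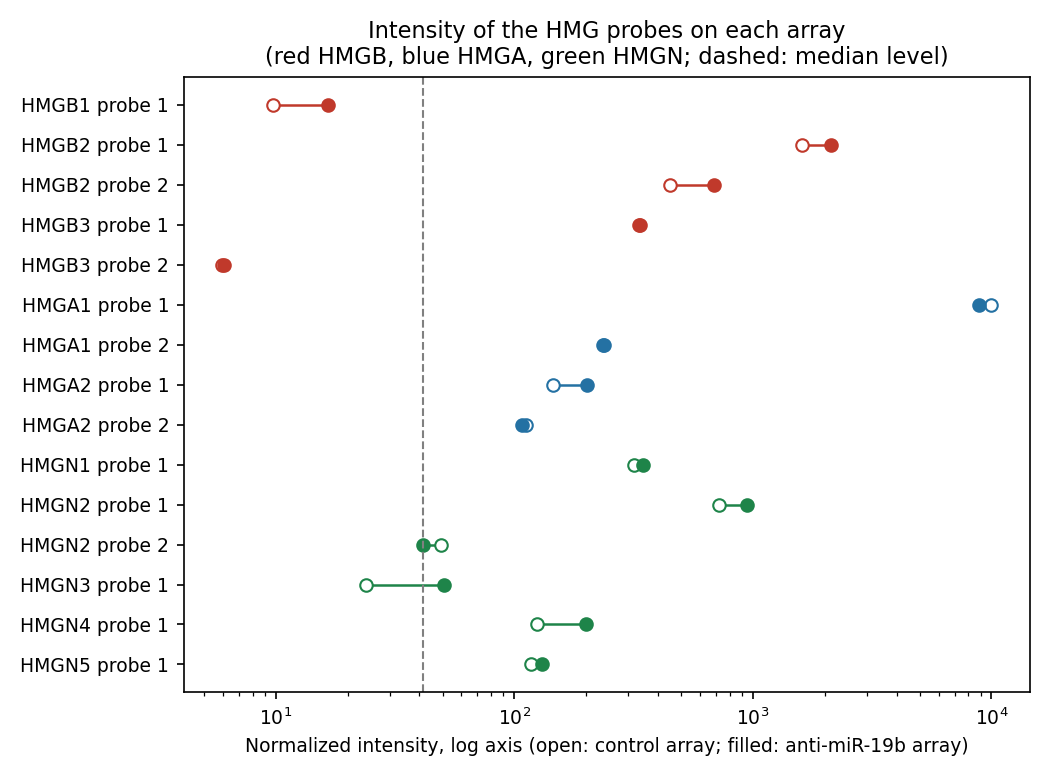
Normalized intensity (log axis) of the 15 HMG probes, a row each, on the control array (open circles) and the anti-miR-19b array (filled circles), with the median level of all compared probes dashed. The filled circles of HMGB2, HMGN3, HMGN4 and HMGB1 lie to the right, as do those of the brighter HMGA2 and HMGN2 probes, while those of HMGB3 lie on top of each other and the brighter HMGA1 probe goes from 9980 to 8855.

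HMGB2 was higher with anti-miR-19b at both of its probes. The brighter probe (PH_hs_0028423) read 1610 in control cells and 2131 with anti-miR-19b, in units of normalized intensity. Its log2 ratio was 0.40, a 1.32-fold difference. Among its 500 neighbours in level, 22 had a higher ratio and 478 a lower ratio. The less bright probe (PH_hs_0044671) had 449 in control cells and 686 with anti-miR-19b. Its log2 ratio was 0.61, a 1.53-fold difference, with 7 of the 500 nearest probes higher. Both ratios therefore lay above the middle 68% of probes of like brightness, which ended at 0.26 in each case. The study used a threshold of 1.5-fold, which is 0.585 on the log2 scale. Of the ratios computed here, only that of the less bright probe was over it. In the study's list of lower genes, some ratios differ from those of the intensities printed beside them. Its own ratio for HMGB2 may thus differ from the values here.

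The other HMGB genes did not share one pattern. HMGB3, a relative known from stem and progenitor cells of the blood, had 336 in control cells and 332 with anti-miR-19b at its bright probe (PH_hs_0049375, log2 ratio -0.018). This was well inside the middle 68% of like probes, from -0.20 to 0.32. Its dim probe (PH_hs_0027590) read 5.96 and 6.06, near the floor. HMGB1 was read by 1 dim probe (PH_hs_0036941), at 9.78 in control cells and 16.6 with anti-miR-19b. Its log2 ratio of 0.76 stood for a difference of 6.78 intensity units. At that brightness 16.8% of the 500 nearest probes were over 1.5-fold higher and 49 of them had a higher ratio than HMGB1. HMGB1 is usually abundant in nuclei, and a low intensity at 1 probe does not measure how much of the transcript was there, since probes differ in how well they hybridize.

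The HMGA genes were near equal on the arrays at most probes. HMGA1, widely raised in carcinomas, had 9980 in control cells and 8855 with anti-miR-19b at its brighter probe (PH_hs_0043556), the brightest of all 15. The log2 ratio was -0.17, with 93 of the 500 nearest probes lower. Its other probe (PH_hs_0028920) had 238 and 234 (log2 ratio -0.024). HMGA2 is known as an oncofetal gene that the let-7 microRNAs repress. Its brighter probe (PH_hs_0024222) had 145 in control cells and 201 with anti-miR-19b, a log2 ratio of 0.47 that 29 of the 500 nearest probes exceeded. The less bright probe (PH_hs_0044713) had 112 and 107 (log2 ratio -0.058), on the other side of 0. The HMGA2 probes thus gave no common direction. None of the 4 HMGA probes, all bright, was over 1.5-fold either way. Among all bright probes 2.41% were higher and 1.05% lower by that much, so that a count of 0 of 4 is near that share.

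Among the HMGN genes, HMGN4 had the largest ratio of any bright HMG probe. It was read by 1 probe (PH_hs_0012847), at 125 in control cells and 200.0 with anti-miR-19b, a log2 ratio of 0.68 and a 1.60-fold difference. Of the 500 nearest probes 6 had a higher ratio, and 2.8% were over 1.5-fold higher. HMGN4 is an intronless gene that arose from a copy of HMGN2, and the sequence of the probe was not used here, so that its ability to tell these transcripts apart was not tested. HMGN2 itself had 723 in control cells and 942 with anti-miR-19b at its brighter probe (PH_hs_0049629, log2 ratio 0.38, with 28 of 500 higher). Its other probe (PH_hs_0045436), just above the median level, read 49.2 and 41.2, a log2 ratio of -0.25 and thus of opposite sign.

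HMGN3, known from eye, brain and hormone-secreting cells, had the largest ratio of all 15 probes, and it was a dim probe (PH_hs_0004473). It read 23.8 in control cells and 50.6 with anti-miR-19b (log2 ratio 1.09, a 2.12-fold difference). Of its neighbours 14 of 500 had a higher ratio and 18.2% were over 1.5-fold higher. HMGN1, which lies in the part of the genome tied to Down syndrome, had 318 and 346 (PH_hs_0029863, log2 ratio 0.12). HMGN5, the member with a long acidic tail, had 118 and 131 (PH_hs_0023441, log2 ratio 0.15). Both were inside the middle 68% of like probes.

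**Figure D2:**
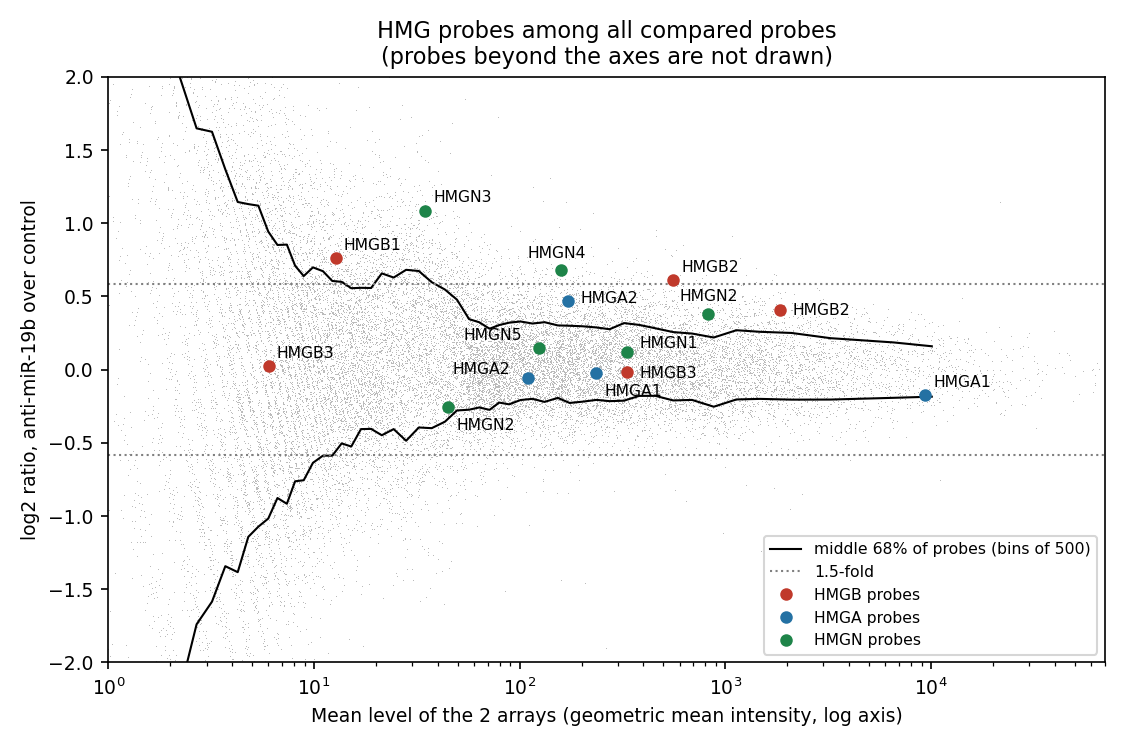
Log2 ratio, anti-miR-19b over control, against the geometric mean intensity of the 2 arrays (log axis) for all compared probes (grey) and the HMG probes (colored by family), with the middle 68% of probes between the black lines and 1.5-fold dotted. HMGB2, HMGN4 and the brighter HMGA2 and HMGN2 probes lie above the band among bright probes, and HMGN3 and HMGB1 lie above 1.5-fold where the grey cloud is wide.

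Counted over the set, 4 of the 15 HMG probes were over 1.5-fold higher with anti-miR-19b and 0 were lower by that much. Over all compared probes the shares were 13.8% higher and 12% lower, most of them dim. Of the 12 bright HMG probes 2 were over 1.5-fold higher, beside 2.41% of all bright probes, and 0 were lower, beside 1.05%. These were HMGN4 and the less bright probe of HMGB2, a gene that the study selected on its own ratio. Which HMGB2 probe the study used is not known here. Without HMGB2, 1 of 10 bright probes was over 1.5-fold higher. Of the 3 dim HMG probes 2 were over 1.5-fold higher (HMGB1 and HMGN3), beside 25.1% of all dim probes higher and 22.9% lower.

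The ratios of the set lay on both sides of 0, with the larger ones on the higher side. The median log2 ratio of the 15 probes was 0.15, beside 0.028 over all compared probes, and 10 of the 15 were above 0, beside 52.9% of all compared probes. The median was 0.39 at the brightest probe of each gene and 0.096 after quantile normalization. At the 12 bright probes the median was 0.13, with 7 above 0 and 5 below (53.9% of all bright probes were above 0), and without HMGB2 it was 0.051, with 5 above 0 and 5 below. By family, the bright probes had medians of 0.40 for HMGB (3 probes), -0.041 for HMGA (4 probes) and 0.15 for HMGN (5 probes). The HMGB median is that of the HMGB2 probe at 1610 and 2131. Relative to their own neighbours, 7 of the 15 probes lay above the middle 68%, 8 inside it and 0 below it. By the definition of this range, about 16% of neighbours lie above it and 16% below it. Among the 10 bright probes without HMGB2, 3 lay above it, 7 inside it and 0 below it. The 7 were both HMGB2 probes, the brighter probes of HMGA2 and HMGN2, and the probes of HMGN4, HMGN3 and HMGB1.

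HMGB2 was then set beside its relatives. Its mean log2 ratio was 0.51, and the median over the other 9 genes was 0.15, a difference of 0.36. HMGB2 was above 6 of these genes and below 3. Those below it in ratio were HMGA1 by 0.61, HMGB3 by 0.50, HMGN2 by 0.44, HMGN1 by 0.39, HMGN5 by 0.36 and HMGA2 by 0.30. HMGN3 was above HMGB2 by 0.58, HMGB1 by 0.25 and HMGN4 by 0.17. Of the 10 bright probes of the relatives, 8 had a ratio below both HMGB2 probes, 1 lay between them (HMGA2) and 1 above both (HMGN4). The distance between HMGB2 and its relatives rests on how the probes of a gene are combined. At the brightest probe of each gene alone, HMGB2 had 0.40 and stood only 0.022 above the median of the other genes, which was then the HMGN2 value of 0.38.

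The probes of a gene were also compared with each other. They read the same pair of RNA samples, so that their gap says nothing of variation between cultures. Among all genes, 1629 had exactly 2 bright probes, whose log2 ratios lay a median of 0.24 apart, and percentile 84 of this gap was 0.49. The HMGB2 probes were 0.21 apart, less than the median gap, and the HMGA1 probes 0.15. The HMGA2 probes were 0.53 apart, a wider gap than in 86.6% of these genes, and the HMGN2 probes 0.64 apart, wider than in 92.3%. HMGB2 was 1 of 39 genes, or 2.39% of the 1629, in which both bright probes had a log2 ratio above 0.4, a limit chosen after its values were seen. In 4 of the 1629 genes both bright probes were over 1.5-fold higher, and HMGB2 was not among them. The genes HMGB1, HMGN1, HMGN3, HMGN4 and HMGN5 were read by 1 probe each, so that no such comparison exists for them.

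**Figure D3:**
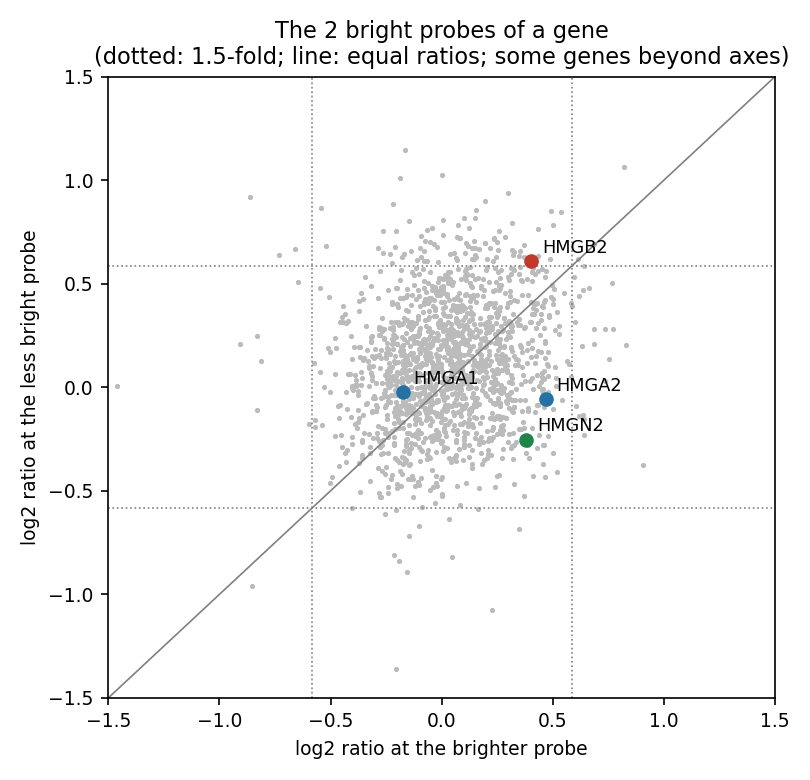
Log2 ratio, anti-miR-19b over control, at the less bright probe against that at the brighter probe for the 1629 genes with 2 bright probes (grey), with the 4 HMG genes among them colored. HMGB2 is high on both axes, whereas HMGA2 and HMGN2 are above 0 on the horizontal axis and below 0 on the vertical axis.

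The threshold of 1.5-fold ran close to HMGB2, and its side depended on the scaling of the arrays. With the median log2 ratio of all compared probes set to 0, the less bright HMGB2 probe had 0.583, under the limit of 0.585. Quantile normalization and removal of the trend of the ratio on mean level each also gave 0.583, and an offset of 50 added to both intensities gave 0.560. The direction was the same in all of these, and the brighter probe stayed between 0.376 and 0.404. Counting the deposited values as 1 scaling, HMGN4 was over 1.5-fold in 4 of 5, with 0.636 after quantile normalization and 0.516 with the offset. HMGN3 and HMGB1 were also over it in 4 of 5. With the offset, which shrinks the ratios of dim probes most, they went to 0.45 and 0.16.

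**Figure D4:**
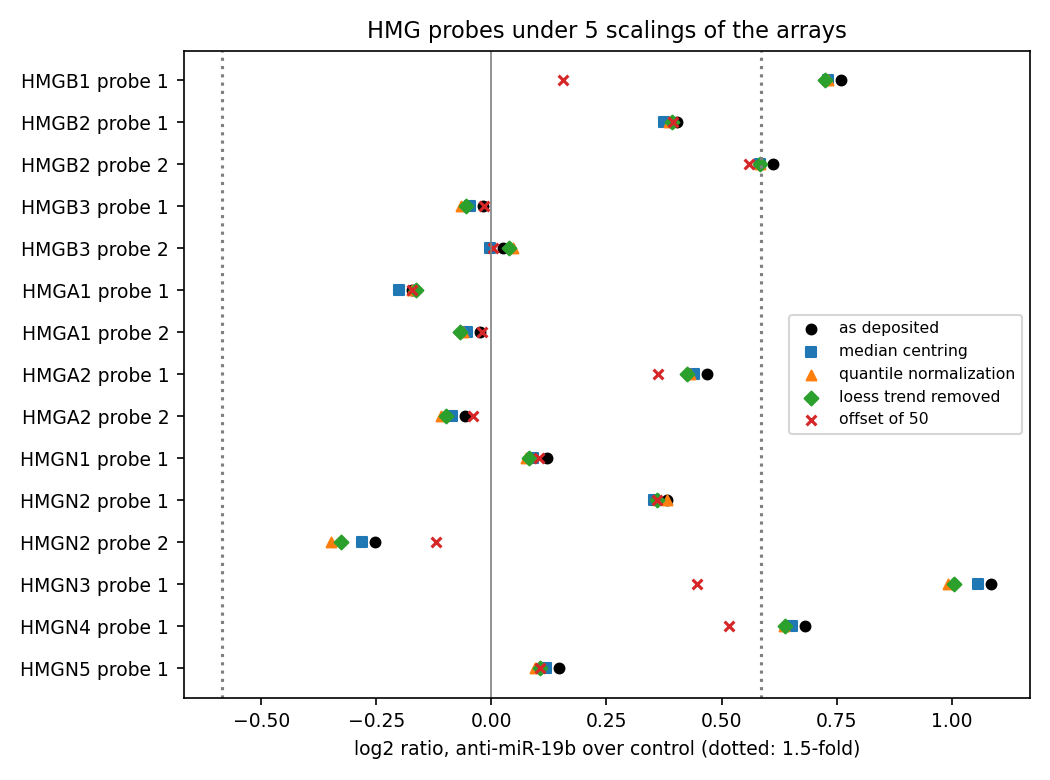
Log2 ratio, anti-miR-19b over control, of the 15 HMG probes under 5 scalings of the arrays (symbols), with 1.5-fold dotted. The less bright HMGB2 probe lies at the dotted line, from 0.560 to 0.611, and the ratios of HMGB1 and HMGN3 move far toward 0 with the offset.

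Relatives and partners of the HMG proteins were described in the same way, by genes with at least 1 bright probe. These lists were written with earlier results of these arrays known. Over all 9990 such genes the median log2 ratio was 0.023, and 53.6% were above 0. Counts of their bright probes over 1.5-fold are to be read beside the 2.41% higher and 1.05% lower among all bright probes, and in lists this short a count of 0 is near that share. Other proteins with an HMG box, among them the LEF and SOX transcription factors, had a median of -0.061 (17 genes, 7 above 0), and 0 of their 21 bright probes were over 1.5-fold either way. SSRP1, a subunit of the histone chaperone FACT, had 34836 in control cells and 32094 with anti-miR-19b (log2 ratio -0.12). TFAM, which packs mitochondrial DNA with its HMG boxes, had 246 and 303 (0.30), and the Wnt pathway factors LEF1 and TCF7L1 had -0.40 and -0.48. Of the relatives in name, HMG20B had 110 and 123 (0.16), HMGXB3 131 and 159 (0.28), and the HMGXB4 probes had -0.098 and -0.15. HMGB4 was at or near the floor, with 2.61 and 4.09 at the probe that could be compared.

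Linker histones, which the HMGN proteins oppose, were mostly read by dim probes. As for HMGB1, a low intensity does not measure how much of a transcript was there. Linker histones and histone variants together had a median of -0.068 (6 genes), and 0 of 9 bright probes were over 1.5-fold. H1-10 was the linker histone with a bright probe, at 338 in control cells and 234 with anti-miR-19b (log2 ratio -0.53). The SET complex, in which HMGB2 is a partner of SET and ANP32A, had a median of 0.055 (6 genes), and 0 of 8 bright probes were over 1.5-fold. SET had 7588 and 7857 (0.050), ANP32B 2615 and 3244 (0.31), and the ANP32A probes had -0.20 and 0.32. Other abundant chromatin proteins had a median of 0.071 (13 genes), with 0 of 16 bright probes over 1.5-fold. DEK had 0.19 in log2 ratio, and the probes of PSIP1 had 0.48 and -0.16.

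Genes of G2 and M phase, in which HMGB2 is known to peak, had a median log2 ratio of 0.16, and 14 of 18 were above 0. Of their 25 bright probes 2 were over 1.5-fold higher and 0 were lower, beside 2.41% and 1.05% of all bright probes. These were probes of CDK1, the mitotic kinase, from 447 to 672 (log2 ratio 0.59), and of BIRC5, which encodes survivin, from 53.2 to 86.4 (0.70). The other bright probes gave 0.39 for CDK1, and 0.35 and 0.16 for BIRC5. KPNA2, a nuclear import receptor, had 0.48 and 0.35, and the probes of UBE2C, a mitotic ubiquitin-conjugating enzyme, disagreed, with 0.47 and -0.43. The proliferation marker MKI67 had 0.027. The 4 genes below 0 were STMN1 at -0.14, NUSAP1 at -0.042, CENPE at -0.035 and PLK1 at -0.027. The highest mean over bright probes in this list was 0.49, for CDK1, beside 0.51 for HMGB2. Whether these genes and HMGB2 differ between the arrays for a common reason was not tested.

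Proteins that receive or relay HMGB1 outside the cell had a median of -0.18 over 6 genes with a bright probe. Of their 7 bright probes 1 was over 1.5-fold higher, that of CD24, and 0 were lower. The shares of all bright probes were 2.41% and 1.05%. CD24, a surface partner of HMGB1, had 123 in control cells and 188 with anti-miR-19b (log2 ratio 0.62), and the receptor AGER had 325 and 279 (-0.22). TLR4 was at the median level, with 41.5 and 41.8, and TLR2 near the floor, with 5.42 and 1.88. The chemokine CXCL12, which binds HMGB1, had -0.16 and -0.22 at its bright probes and 0.92 at a dim probe. The regulators LIN28 and IGF2BP, which act on let-7 and on HMGA2 mRNA, had a median of 0.042 (4 genes). Of their 4 bright probes 0 were over 1.5-fold either way. LIN28B had 332 and 406 (0.29), IGF2BP3 2871 and 3091 (0.11), IGF2BP1 375 and 369 (-0.024) and IGF2BP2 4974 and 4591 (-0.12).

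**Figure D5:**
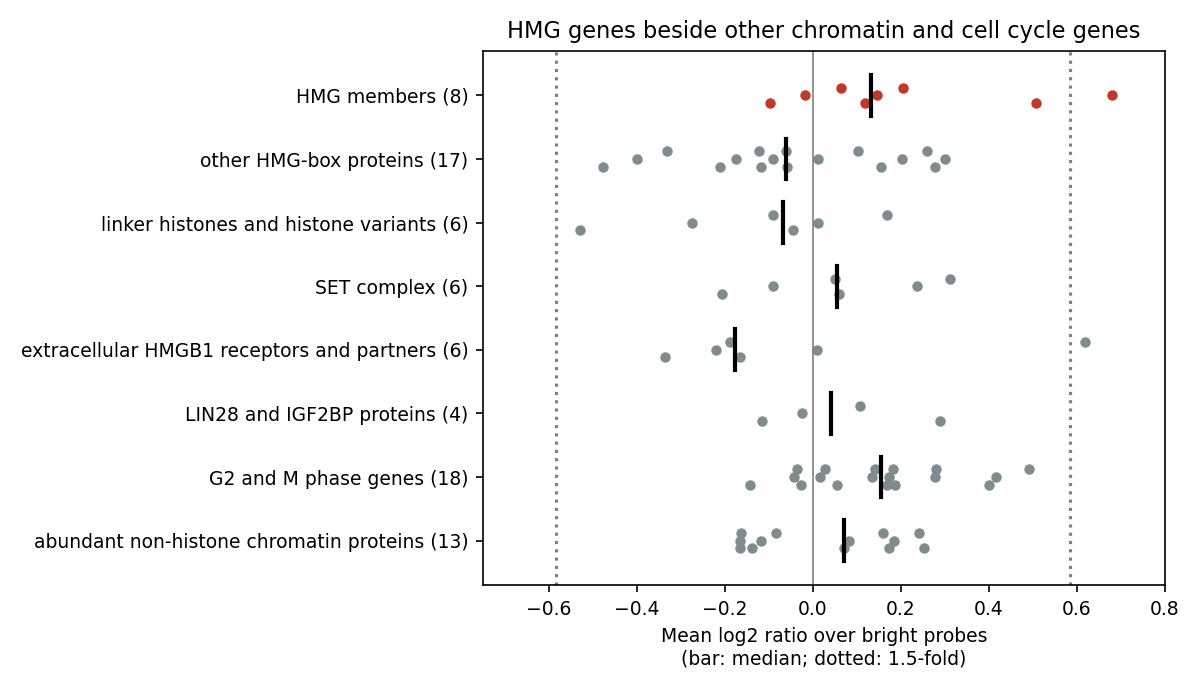
Mean log2 ratio, anti-miR-19b over control, of each gene over its bright probes (points) in the HMG set (red) and 7 lists of related genes (grey), with the number of genes in parentheses, the median as a bar and 1.5-fold dotted. HMGN4 at 0.68 and HMGB2 at 0.51 are the highest HMG genes, and the other 6 lie between -0.098 and 0.21.

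HMG genes have many processed copies in the genome, and 7 loci named as pseudogenes of HMGB1, HMGB3, HMGN1 or HMGN2 had a probe. None was bright, and their intensities lay between -6.06 and 18.1 over both arrays. Of these 4 were above 0 on both arrays. They read 18.1 in control cells and 10.5 with anti-miR-19b for HMGB1P15, 13.8 and 6.83 for HMGN2P8, 5.49 and 3.86 for HMGN2P18, and 6.49 and 9.27 for HMGN2P24. At such levels the ratios of dim probes spread widely, as given above. Whether such copies add to the signal of the HMG probes was not tested.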

How the data were processed

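RNA of Hep3B cells given the miR-19b inhibitor or the control was measured on 2 Human OneArray mRNA arrays, 1 per condition. The authors labeled the RNA with 1 dye (Cy5 in the sample labels, fluorescein in the methods), scanned them and deposited a linear, normalized intensity for each probe and array. No source used here names the method of normalization or background correction.

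The platform annotation used here names 1 gene for 25053 of the 29187 probes, several for 0 and none for 4134. The study's list of lower genes names HSPA6 and HSPA7 together, where the symbol used here is HSPA6 alone. A single symbol therefore does not show that a probe reads only 1 gene. For 24981 probes the symbol was found through the Entrez identifier, whether or not it changed (RefSeq genes, GRCh38.p14, used for names only). Probes at or below 0 on either array (3001) were not compared, and probes of a gene were averaged where a value per gene is given. No test was possible without replicate arrays, and their number limits the precision throughout. The members, gene lists and limits were chosen with earlier results of these data known. All probes of the 10 HMG genes are named, and in other lists the bright probes over 1.5-fold and those a sentence needed. Alternatives were median centring, quantile normalization, loess (fraction 0.3), an offset of 50, bright probes, the brightest probe, 2-fold, and genes in place of probes. The steps were run on simulated data with shifts well over the 1.5-fold limit. This checks the code and not the reading of ratios near that limit. Python 3.11.15, numpy 2.4.6, pandas 2.3.3, statsmodels 0.14.6 and matplotlib 3.10.9 were used.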

Additional observations from a re-analysis of the deposited data

How the results depend on the processing

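No paired analysis was possible because there was a single array for each condition. The count of 4 HMG probes over 1.5-fold higher became 3 with median centring, loess or quantile normalization, 3 at the brightest probe of each gene, 3 genes in place of probes, 2 with bright probes alone, 1 at 2-fold and 0 with an offset of 50. The count over 1.5-fold lower was 0 in each. Among all compared probes as deposited, 13.8% were over 1.5-fold higher, and among bright probes 2.41%. For the other settings no share over all probes is given, so those counts have no background to be read against. By construction, bright probes alone, the brightest probe and genes count fewer units, 2-fold is a higher limit and the offset shrinks ratios. The median of the HMG probes was 0.393 at the brightest probe of each gene and between 0.0956 (quantile normalization) and 0.176 (genes in place of probes) in the other settings, and the mean of HMGB2 between 0.404 and 0.508. HMGB2 minus the median of the other genes lay between 0.357 and 0.389, except at the brightest probe of each gene, where it was 0.0219. Dim probes limit HMGB1, HMGN3 and the second HMGB3 probe.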
